A study of Mus musculus with 2 samples.

Results

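Resident Kupffer cells are the macrophages that line the sinusoids of the liver, and 10 genes that mark them are described here in the livers of mice on a high-fat diet. The genes were Clec4f, Timd4, Vsig4, Cd5l, Marco, Cd163, Folr2, Adgre1, Csf1r and Slc40a1. They were found by symbol, all 10 of them, among the 22180 genes that had a probe set with a single gene symbol. The data were 2 Affymetrix whole-transcript arrays of liver RNA, 1 for a pool of wild-type (WT) mice and 1 for a pool of E4bp4-LKO mice. Both pools came from male mice that ate ordinary chow until 2 months of age and a high-fat diet for the next 12 weeks, so the diet was common to both genotypes and no chow-fed liver was compared. E4BP4, the product of Nfil3, is a basic leucine zipper repressor of the circadian system. The labels do not spell out LKO. Neither the labels nor the study's design text name the promoter that drives the deletion, the cells in which the gene is lost, how many mice went into a pool or when in the day the livers were taken.

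Kupffer cells clear bacteria, aged red cells and dying cells from portal blood. They depend on the growth factor receptor CSF1R, and signals from stellate, endothelial and hepatocyte neighbours maintain their identity. During prolonged fatty liver injury, TIM4-positive resident cells can be lost and replaced by monocyte-derived macrophages, some of which take on a lipid-associated state marked by Trem2 and Gpnmb. TIM4 marks the long-lived resident cells, CLEC4F marks Kupffer cells of either origin, and F4/80 (Adgre1) and CSF1R are shared with other macrophages.

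Of the 10 genes, 8 were higher on the E4bp4-LKO array than on the WT array and 2 were lower, all by small amounts. The 8 were the uptake receptor genes Timd4, Marco, Vsig4 and Clec4f, the iron and haem genes Cd163 and Slc40a1, the folate receptor gene Folr2 and the gene of the secreted protein CD5L. The 2 lower genes were those shared most widely among macrophages, Adgre1 and Csf1r. The median difference of the 10, E4bp4-LKO minus WT, was 0.17 on the log2 scale (1.12-fold), with a range from -0.27 to 0.46. No member reached 1.5-fold in either direction.

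That count is read against the whole array. Each gene's log2 level was averaged over both arrays, and the 11090 genes whose average exceeded the median gene's, 4.20, are called above the floor. Among these, 3.57% differed by at least 1.5-fold in either direction, 1.51% being higher in E4bp4-LKO and 2.06% lower, so a count of 0 among 10 genes lies near the background. A difference above 0 was found for 45.5% of the genes above the floor, against 8 of the 10 members, and the median over all genes above the floor was -0.02. The members and the other lists were chosen with earlier results of these data known, so their directions are no independent evidence. Each genotype had a single pooled array, so no value has a replicate error and genotype could not be tested, and pool, array, hour of collection and genotype cannot be told apart. In whole liver RNA, a change in the number of Kupffer cells and a change in RNA per cell cannot be told apart either.

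Nfil3, the gene targeted, measured 5.94 in WT and 4.47 in E4bp4-LKO (a difference of -1.47, log2). Array medians were 3.74 (WT) and 3.75 (E4bp4-LKO). All 10 members lay above the floor on each array, Clec4f by 4.53 (WT) and 4.69 (E4bp4-LKO) log2 units, Vsig4 by 4.25 and 4.54, and Timd4 by 2.39 and 2.74. By its definition 11090 of the 22180 genes pass the floor on the mean of both arrays, so passing it does not identify a cell type. Each member had a single probe set, so no gene could be checked against a second one. As a scale for disagreement between probes, the E4bp4-LKO minus WT differences of paired probe sets were compared in the 555 genes that had 2 and passed the floor, and their standard deviation within a gene was 0.22. By size, 5 members exceeded that value (Cd163, Timd4, Marco, Vsig4 and, in the negative direction, Adgre1) and 5 did not.

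**Figure D1:**
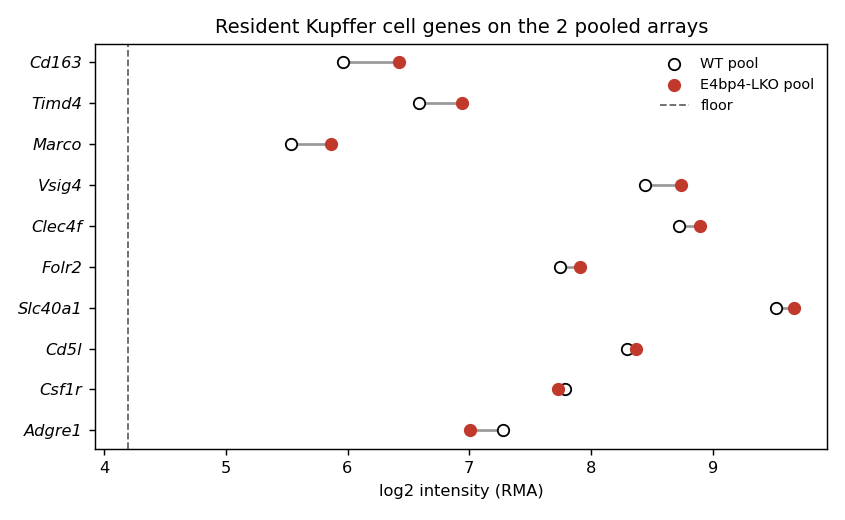
Log2 RMA intensity (x axis) of each resident Kupffer cell gene (y axis, ordered by difference) on the WT array (open circles) and the E4bp4-LKO array (red circles), 1 pooled array each, with the floor of 4.20 as a dashed line. The red circle lies to the right of the open one for 8 of the 10 genes and to the left for Csf1r and Adgre1.

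The promoter sequences of the 4 members that were higher by more than the disagreement between probe sets are shown for reference, because they differed in the same direction. RefSeq windows (build GRCm38.p6) were at hand for 7 of the members, Cd163, Cd5l, Clec4f, Folr2 (with 2 windows), Marco, Timd4 and Vsig4. The 250 bases before each window's annotated start are given 5′ to 3′ on the gene's strand. For Cd163 and Timd4 that start lies a few bases inside the annotated gene. Capitals mark GAGGAA, a core of the element bound by the macrophage lineage factor PU.1, or its reverse complement TTCCTC.
Cd163, chr6:124304401-124304650 (+): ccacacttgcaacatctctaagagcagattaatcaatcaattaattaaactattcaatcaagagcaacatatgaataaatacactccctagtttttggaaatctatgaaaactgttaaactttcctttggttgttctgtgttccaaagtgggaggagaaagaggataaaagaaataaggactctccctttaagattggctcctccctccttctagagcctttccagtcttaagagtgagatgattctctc
Timd4, chr11:46810549-46810798 (+): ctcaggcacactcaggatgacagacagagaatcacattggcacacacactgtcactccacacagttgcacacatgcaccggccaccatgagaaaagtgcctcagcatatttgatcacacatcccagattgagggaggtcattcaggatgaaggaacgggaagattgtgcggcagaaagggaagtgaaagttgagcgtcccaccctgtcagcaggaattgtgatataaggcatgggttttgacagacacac
Marco, chr1:120505025-120505274 (-): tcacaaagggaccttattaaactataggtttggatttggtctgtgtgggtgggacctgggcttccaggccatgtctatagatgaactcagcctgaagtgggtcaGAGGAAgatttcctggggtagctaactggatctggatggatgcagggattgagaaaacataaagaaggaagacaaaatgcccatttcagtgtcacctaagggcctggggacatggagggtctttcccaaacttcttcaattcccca
Vsig4, chrX:96293439-96293688 (-): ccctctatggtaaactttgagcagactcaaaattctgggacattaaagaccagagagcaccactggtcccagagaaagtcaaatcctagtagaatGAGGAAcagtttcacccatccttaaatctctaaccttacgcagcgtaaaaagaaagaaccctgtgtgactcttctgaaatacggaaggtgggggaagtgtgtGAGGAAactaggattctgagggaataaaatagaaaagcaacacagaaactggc
The elements TTATGTAA and TTACGTAA, which E4BP4 and the PAR bZIP factors bind, were searched on both strands and were in 0 of the 8 member windows. Over all 32851 RefSeq windows of this length they were in 0.819% and 0.113%. The longer PU.1 element GAGGAAGT and the E-box CAGCTG were likewise in none of the 8, against 2.44% and 13% of all windows. GAGGAA, which lies within GAGGAAGT and was searched only after the longer form had given no match, was in 3 of the 8 windows (Vsig4 with 2 copies, Marco with 1 and Cd5l with 1 on the opposite strand), against 23.3% of all windows. These counts say which letters are in the windows and nothing about binding.

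Among the members, the 4 uptake receptor genes Timd4, Marco, Vsig4 and Clec4f were all higher on the E4bp4-LKO array. Outside the members, apoptotic cell uptake genes were lower in 14 of 14 above the floor, and scavenger and opsonin receptors in 12 of 15. Timd4 encodes TIM4, a receptor for phosphatidylserine on apoptotic cells, and measured 6.59 in WT and 6.94 in E4bp4-LKO. Its difference of 0.35 (1.28-fold) was exceeded in the positive direction by 667 of the 11090 genes above the floor, or 6.01%. Marco, a class A scavenger receptor that binds bacteria and other particles, measured 5.54 (WT) and 5.86 (E4bp4-LKO), a difference of 0.32 (25.2% higher). Marco lay 1.34 units above the floor in WT, and RMA compresses the differences of dim genes towards 0.

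Vsig4 encodes CRIg, the complement receptor with which Kupffer cells catch circulating bacteria. It measured 8.45 in WT and 8.74 in E4bp4-LKO, a difference of 0.30 (1.23-fold), with 8.44% of the genes above the floor more positive. Clec4f, a C-type lectin that in mice is restricted to Kupffer cells, measured 8.73 and 8.89. At 0.17 (1.12-fold) its difference was smaller than the disagreement between probe sets, and 18.7% of the genes above the floor were more positive. The gene for the most Kupffer-restricted receptor thus differed by less than those for TIM4, MARCO and CRIg, in the same direction.

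Cd163 and Slc40a1 serve the handling of haem and iron from red cells. Cd163, the receptor for haemoglobin bound to haptoglobin, had the largest difference of the 10. It measured 5.96 in WT and 6.42 in E4bp4-LKO, a difference of 0.46 (1.37-fold) that 345 genes, or 3.11% of those above the floor, exceeded. Slc40a1 encodes ferroportin, the exporter of iron from cells, which hepatocytes also express. It measured 9.52 and 9.67, a difference of 0.15 (1.11-fold), below the disagreement between probe sets. The 2 genes therefore shared a direction but not a size.

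Folr2 encodes folate receptor beta of resident macrophages and measured 7.75 in WT and 7.91 in E4bp4-LKO, a difference of 0.16 (1.12-fold). Cd5l encodes a secreted scavenger-receptor-type protein that macrophages release into the plasma. It measured 8.30 and 8.37, and its difference of 0.07 (1.05-fold) was the smallest of the 8 positive ones, with 32.4% of the genes above the floor more positive. Neither gene differed by more than the disagreement between probe sets.

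Adgre1 and Csf1r, the genes for F4/80 and the CSF1 receptor, went the other way. Adgre1 measured 7.27 in WT and 7.01 in E4bp4-LKO, a difference of -0.27 (1.20-fold lower), with 12.4% of the genes above the floor more negative. Csf1r measured 7.78 and 7.73. Its difference of -0.05 was the smallest in size among the 10 and lay near the centre of the array, where 44.0% of the genes above the floor were more negative. Csf1r thus differed little, and Adgre1 was the only member lower by more than the disagreement between probe sets.

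**Figure D2:**
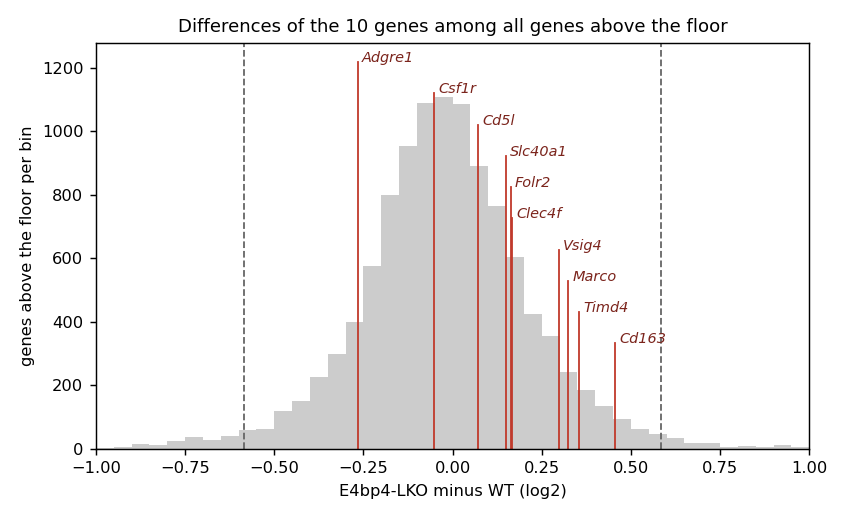
Number of genes above the floor (y axis) per bin of 0.05 in the log2 difference E4bp4-LKO minus WT (x axis, shown from -1 to 1, leaving out 88 genes), with each Kupffer cell gene drawn as a red line whose height has no meaning. Dashed lines stand at 1.5-fold, and all 10 genes lie between them.

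Because the members differed in both directions, their changes were unequal. Set against Adgre1, Cd163 shifted by 0.72 on the log2 scale (1.65-fold), Timd4 by 0.62 (1.54-fold), Marco by 0.59 (1.51-fold), Vsig4 by 0.56 (1.48-fold) and Clec4f by 0.43 (1.35-fold). Set against Csf1r, the same shifts were 0.51, 0.41, 0.38, 0.35 and 0.22. Such a difference of differences gives how far apart the values of 2 genes moved on these arrays and carries no replicate error. Adgre1 was the lowest of the 10, which makes the shifts against it the largest. The shift of Clec4f against Csf1r was no larger than the disagreement between probe sets for a single difference, 0.22. All 10 members lay between -0.54 and 0.49, the limits that enclose the middle 95% of genes above the floor, and 7 lay above the upper quartile of 0.12.

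At a lower threshold, 0.32 on the log2 scale, 3 members were higher (Cd163, Timd4 and Marco) and none was lower, against 16.3% of the genes above the floor in either direction, 7.4% higher and 8.89% lower. Vsig4, at 0.30, missed it narrowly, so no gap sets the 3 apart.

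Other genes with Kupffer cell expression, a list without the 10, gave smaller differences. Of 18 genes, 16 were measured and 14 lay above the floor, where 8 were higher and 6 lower, with a median of 0.10 and a range from -0.21 to 0.45. The split was 9 and 5 once differences were centred and 10 and 4 with the intensity trend removed, where Clec1b and Gfra2 turned positive, and with no floor the median was 0.04. The eosinophil-attracting chemokine gene Ccl24 was the highest, at 4.95 in WT and 5.41 in E4bp4-LKO, followed by Lilra5 (0.25) and by Fcna, the gene of the lectin ficolin A (0.23). Kcna2, a potassium channel gene, was the lowest (-0.21). Complement C6 differed by 0.12 and is also made by hepatocytes. None of the 14 reached 1.5-fold. Ccl24, Lilra5 and Fcna were thus higher together with Cd163 and Timd4, with Cd207 (0.18) next, and the list as a whole lay on both sides of 0.

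Genes found in macrophages of any kind leaned the other way. In the pan-macrophage list 11 of 16 genes above the floor were lower and 5 higher, with a median of -0.10, and none reached 1.5-fold. The monocyte co-receptor gene Cd14 (-0.52), the endosomal glycoprotein gene Cd68 (-0.43) and the efferocytosis receptor gene Mertk (-0.41) were the lowest. Lyz2, which encodes lysozyme, was the highest, at 8.04 in WT and 8.44 in E4bp4-LKO (0.40). The complement gene C1qa differed by -0.07. Adgre1 (-0.27) thus lay below the median of this list and Csf1r (-0.05) above it, and the members' median lay 0.26 above the list's median.

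Lipid-associated macrophage genes were lower as a group. All 11 above the floor had a negative difference, or 10 with the brightest probe set of each gene, where Fabp5 turned to 0.18. They had a median of -0.57, and 5 were at least 1.5-fold lower. Itgax (4.52 in WT, 3.97 in E4bp4-LKO) and Gpnmb passed the floor only through their WT level. Gpnmb, a lysosomal glycoprotein gene, measured 6.04 in WT and 4.06 in E4bp4-LKO, below the floor, and Trem2, a lipid-sensing receptor gene, measured 5.57 and 4.89. The macrophage elastase gene Mmp12 (-1.63) and the tetraspanin gene Cd63 (-1.12) lay between them in size. The members' median lay 0.73 above that of this list, and the ranges met only between -0.27 and -0.07. This list, like the members and every other list here, was drawn up with earlier results of these arrays known. Its direction is therefore no independent evidence. On the same 2 arrays Timd4 was therefore higher while Trem2 and Gpnmb were lower.

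Monocyte genes were mostly dim. Of 12 measured, 5 lay above the floor, 4 of them lower and 1 higher, with a median of -0.05. Once differences were centred, 3 were lower and 2 higher, where Fn1 turned positive. The defining inflammatory monocyte genes Ly6c2 (3.97 in WT, 3.88 in E4bp4-LKO) and Ccr2 (3.71 and 3.66) lay below the floor on both arrays. The fractalkine receptor gene Cx3cr1 (-0.56) was the lowest of those above it.

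**Figure D3:**
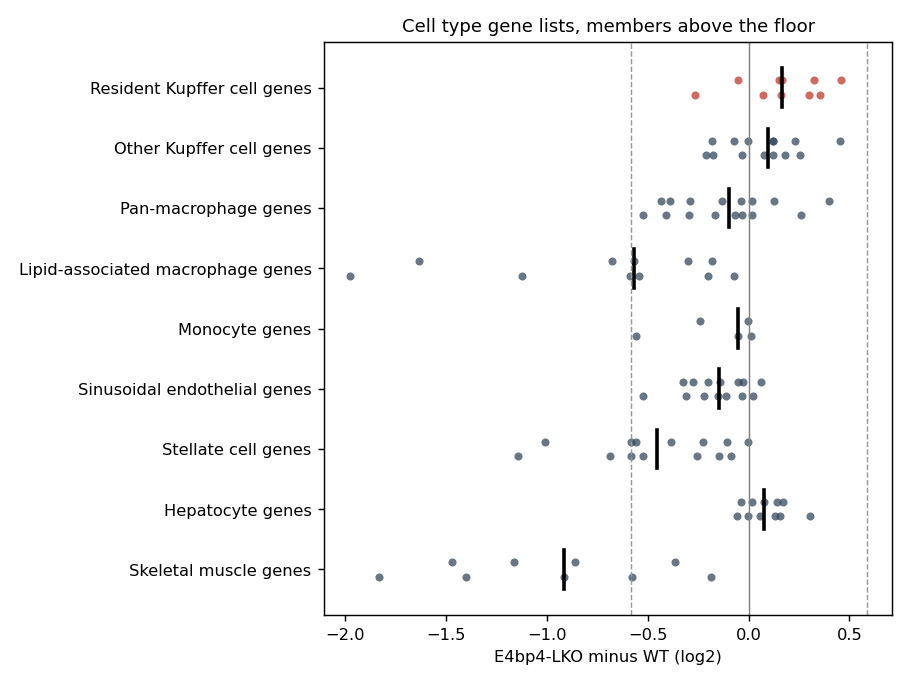
Log2 difference E4bp4-LKO minus WT (x axis) of the genes above the floor in 9 cell type lists (y axis), 1 point per gene, with a black bar at each list's median and dashed lines at 1.5-fold. The median of the resident Kupffer cell genes (0.17, red) lies to the right of 0 and that of the lipid-associated macrophage genes (-0.57) to the left.

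Markers of the other liver cell types did not share one direction. Hepatocyte genes had 8 of 11 higher with a median of 0.08, and Alb, which encodes albumin, measured 12.77 on both arrays. Their count of higher genes was 9 once differences were centred, where Alb turned positive, and 7 when quantile-normalized again, where F9 turned negative. Sinusoidal endothelial genes, of the cells that Kupffer cells touch, had 12 of 14 lower with a median of -0.15. Stab2, an endothelial clearance receptor, differed by -0.03 and the hyaluronan receptor gene Lyve1 by -0.52. Stellate cell genes were lower in 14 of 14, or 13 once differences were centred or the intensity trend was removed, where Ecm1 turned positive. Their median was -0.45, or -0.25 with a floor at the 75th percentile, and 3 passed 1.5-fold on the lower side, led by the fibrillar collagen gene Col3a1 (-1.15). Lrat, of vitamin A storage, differed by -0.56. Col1a2, also of the stellate list, passed the floor only through its WT level (4.72) and measured 4.14 in E4bp4-LKO.

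Skeletal muscle genes, from a list written with earlier results known, were lower on the E4bp4-LKO array in 9 of 9 genes above the floor, with a median of -0.91 and 6 at least 1.5-fold lower. Of the 9, Myh4 (5.51 in WT, 4.11 in E4bp4-LKO), Myh1 (4.99 and 3.82) and Mylpf (4.34 and 4.15) passed the floor only through their WT level. Their direction was thus partly fixed by the floor, and Myh4 and Myh1 are among the 6. Atp2a1, the muscle calcium pump gene, measured 6.92 in WT and 5.45 in E4bp4-LKO. Muscle RNA thus measured higher in the WT pool, and its part in the differences of the Kupffer cell genes was not tested.

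The transcription factors of Kupffer cell identity gave no common direction. Of 13 measured, all above the floor, 5 were higher and 8 lower, with a median of -0.04 and none at 1.5-fold. The median turned to 0.02 with a floor at the 75th percentile, and 4 to 6 genes were higher over the scaling and probe set alternatives. Nr1h3, which encodes the oxysterol receptor LXR alpha on which Kupffer cell identity depends, was higher at 7.60 in WT and 7.80 in E4bp4-LKO (0.21). Id3, a helix-loop-helix inhibitor needed for Kupffer cell development, measured 6.24 and 6.45 (0.21). Spic, a factor of iron-recycling macrophages, was lower at 4.73 and 4.48 (-0.25), and Id1 (-0.34) and Tfec (-0.35) were the lowest. Spi1, which encodes PU.1, differed by -0.08. Nr1h3 and Id3 thus had the same sign as Timd4 and Vsig4, while 8 of the 13 were lower, and Spic did not follow Cd163 and Slc40a1. The differences of Nr1h3 and Id3 were each smaller than the disagreement between probe sets, 0.22.

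Ligands from neighbouring cells that support Kupffer cells were lower as a group. All 9 genes above the floor had a negative difference, or 8 once differences were centred or the intensity trend was removed, where Bmp2 turned positive. Their median was -0.24, or -0.13 with a floor at the 75th percentile, and none reached 1.5-fold. Csf1, the main CSF1R ligand, measured 5.86 in WT and 5.63 in E4bp4-LKO (-0.24). Il34, the other CSF1R ligand, was close to the floor at 4.38 and 4.27 (-0.11). The Notch ligand genes Jag1 (-0.45) and Dll4 (-0.29), Tgfb1 (-0.30) and Gdf2, which encodes BMP9 (-0.27), were the lowest. The receptor gene Csf1r (-0.05) and both of its ligand genes were therefore lower by small amounts, while 8 other members were higher.

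Around Cd163 and Slc40a1, the other iron genes gave no common shift. Of 11 above the floor, 3 were higher and 8 lower, with a median of -0.05. The split was 4 and 7 once differences were centred, where Fth1 turned positive. Hamp, which encodes hepcidin, the liver hormone that binds ferroportin and causes its degradation, measured 11.82 in WT and 12.09 in E4bp4-LKO (0.26), and Hamp2 differed by 0.04. Hmox1, the haem-degrading enzyme downstream of CD163, differed by -0.18, the haem transporter gene Slc48a1 by -0.21 and the transferrin receptor gene Tfrc by -0.41. Cd163 and Slc40a1 were thus higher with Hamp and without Hmox1.

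Around Timd4, the other genes of apoptotic cell uptake were lower in 14 of 14 above the floor, or 13 once differences were centred or the intensity trend was removed, where Lrp1 turned positive. Their median was -0.26, with 1 at least 1.5-fold lower. That gene was Mfge8, a bridge between phosphatidylserine and integrins, which measured 6.95 in WT and 6.36 in E4bp4-LKO (-0.59). Elmo1, of the engulfment machinery, differed by -0.51 and Mertk by -0.41. Timd4 was the only gene of this pathway list above the floor with a positive difference before such centring, and Lrp1 joined it at 0.015 after.

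Around Marco and Vsig4, the other scavenger and opsonin receptors were lower in 12 of 15 above the floor, with a median of -0.24. Of the 12, Itgax passed the floor only through its WT level. Colec12, an endothelial scavenger receptor gene, was the lowest (-1.35). Msr1, the class A relative of Marco, measured 6.58 in WT and 6.80 in E4bp4-LKO (0.22). The Fc receptor genes Fcgr3 (0.62) and Fcgr4 (0.26) were also higher, Fcgr3 by 1.53-fold, and Fcgr1 (-0.39) was lower. Fc receptor genes resemble each other and probe sequences were not examined, so their single values are uncertain. Marco and Msr1 were thus both on the higher side of a list that mostly lay below 0.

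Among paralogs of the members, 9 of 15 measured lay above the floor, 5 higher and 4 lower, with a median of 0.04 that turned to -0.05 with no floor and to -0.03 with probe sets of several symbols. Adgre4, next of kin to Adgre1, differed by 0.04. Pdgfrb (-0.52) and Pdgfra (-0.48), receptor kinases of the same class as Csf1r that mark stellate cells and fibroblasts, were the lowest. Timd2, a relative of Timd4, was the highest at 7.29 in WT and 7.68 in E4bp4-LKO (0.39).

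**Figure D4:**
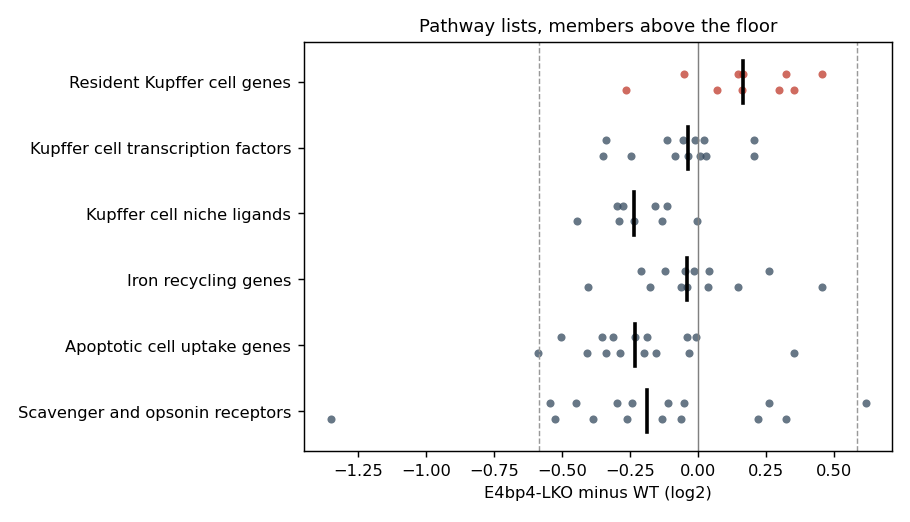
Log2 difference E4bp4-LKO minus WT (x axis) of the genes above the floor in the 10 Kupffer cell genes (red) and 5 pathway lists (y axis), 1 point per gene, with a black bar at each median and dashed lines at 1.5-fold. The highest point of the apoptotic cell uptake list (0.35) is Timd4, and the highest of the iron list (0.46) is Cd163, each also a point of the top line.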

How the data were processed

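Liver RNA pooled over mice was hybridised to 1 Affymetrix array per genotype. Biotinylated cDNA was made from 400 ng of total RNA, per the labels' protocols. The authors deposited log2 intensities, 1 per probe set and array. The submitters' processing notes name R 3.4.0 and RMA, which corrects background, equalises the arrays' distributions and summarises probes. Scanner files and detection calls were not used here.

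Of 41345 probe sets, 23521 had 1 gene symbol in the platform annotation, 1814 several and 16010 none. The latter groups were left out and probe sets of a gene were averaged (pandas 2.3.3, Python 3.11.15). Values were subtracted as E4bp4-LKO minus WT. Genes with a mean over both arrays above the median gene (4.20) were kept, and 1.5-fold was the threshold. No test was possible with 1 array per genotype, and the precision is limited by the number of arrays. Counting was tested on simulated data. The members and the 18 other lists were chosen with earlier results of these data known. Named are all members, Nfil3 and, of each other list, up to 4 genes with the largest differences above the floor and fixed defining markers, with a few more chosen after their values were seen. Alternatives covered the floor, centring, trend, normalization, probe set summary and threshold.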

Additional observations from a re-analysis of the deposited data

How the results depend on the processing

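The members' median stayed between 0.16 and 0.19 over the processing alternatives and between 0.16 and 0.17 when any 1 gene was left out. Each member kept its sign in all 60 recomputed differences, shifting by at most 0.023, but much of this was fixed in advance. With 1 probe set per member, the alternatives of probe set summary and of several symbols left its value unchanged. Centring moved every member by the same 0.023, less than the smallest difference in size, 0.05. At the lower threshold of 0.32 (log2), 3 members were higher in place of 0. Over all genes, 295 were at least 1.5-fold higher and 365 lower with no floor. With a floor at the 75th percentile, which kept 5545 genes, 84 were higher and 72 lower, so that the higher genes became the larger group, and the cause was not tested. Medians of the other lists moved by less than 0.22 in all 166 recomputations, but 4 changed sign. The paralogs turned to -0.05 with no floor and -0.03 with probe sets of several symbols, the neutrophil genes to 0.11 with no floor and the transcription factors to 0.02 with the 75th percentile floor. That floor also brought the stellate list to -0.25, the niche ligands to -0.13 and the pan-macrophage list to -0.05, and 5 recomputations had no gene left. Among the context genes that the naming rule covers, 1 of 450 recomputed differences moved by more, Des to -0.22 with probe sets of several symbols, and the cause was not tested. No paired analysis was possible because each genotype has 1 array. Background could be judged only from the level, so differences of genes near the floor are the least certain, such as those of Gpnmb, Il34, Spic and Cxcr2.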

Other observations

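Lymphocyte, granulocyte and dendritic cell genes were near or below the floor. In the T and NK cell list 5 of 12 genes lay above it, 4 of them higher on the E4bp4-LKO array, with a median of 0.27. With no floor the median of all 12 was 0.11. Of the genes this added, Cd3d (0.43), Cd2 (0.25) and Gzma (0.11) were higher, and Ncr1 (-0.30), Klrb1c (-0.21), Cd3g (-0.18) and Cd8a (-0.11) were lower. Cd4, which T cells and some macrophages express, was the highest at 4.49 in WT and 5.15 in E4bp4-LKO (0.66), and Nkg7, a granule gene of cytotoxic cells, differed by 0.42. Of the B cell genes, 2 of 7 lay above the floor, with a median of 0.23 (0.07 with no floor), the plasma cell gene Jchain at 5.06 and 5.69 (0.63) and Cd79a at -0.18. The neutrophil list had 2 of 10 above the floor, Csf3r (-0.21) and Cxcr2 (0.07), with a median of -0.07 that turned to 0.11 with no floor, and S100a8 and S100a9 lay below it on both arrays. Dendritic cell genes had 3 of 8 above the floor, with Cd209a at 0.22, Xcr1 at 0.07 and Ccr7 at -0.04.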
